A study of Mus musculus with 10 samples.

Results

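The genes described here encode the vacuolar ATPase, the proton pump of lysosomes and endosomes, together with proteins of the lysosomal membrane around it and the transcription factors known for controlling lysosomal genes. They were chosen by name: every symbol in the counts that starts with Atp6v0, Atp6v1 or Atp6ap, plus Lamp1, Lamp2, Cd68, Mcoln1, Tmem192, Clcn7, Ostm1, Tfeb, Tfe3 and Mitf. The rule matched 38 symbols, of which 2 pseudogene copies of Atp6v0c and 5 genes without a single count were left out. The remaining 31 genes are 31 of the 22778 genes with a count and of the 53546 genes in the table. They comprise 10 genes of the V1 sector, 8 of the V0 sector, 2 accessory subunits, 7 lysosomal membrane proteins, 3 transcription factors and Atp6v1fnb, a gene that shares only its symbol's stem with the V1 subunits. A filter on low counts kept 29 of the 31, and Atp6v1fnb and Atp6v1c2 were not tested.

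The counts come from bulk RNA sequencing of CNS-associated macrophages, the resident macrophages of the brain's borders, which were sorted by flow cytometry from the brains of untreated C57BL/6N mice between 6 and 8 weeks of age. By their labels, 4 mice were Mrc1-CreERT2/Mrc1-CreERT2 (homozygous), 3 were Mrc1-CreERT2/wt (heterozygous, numbered 1, 2 and 4) and 3 were wild type. Each library came from an individual mouse, and all 10 carry the same batch label. The study asked how RNA levels compare between the genotypes. By its name the allele places CreERT2, a Cre recombinase fused to an oestrogen receptor domain, in Mrc1, which encodes the mannose receptor CD206. No group received an inducer of Cre, so the comparisons concern the allele itself. The sources used here do not give the sort gate. Sample titles carry a letter, m or f, with both letters in every genotype (2 m and 2 f homozygous, 2 m and 1 f heterozygous, and 2 m and 1 f wild-type mice).

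The vacuolar ATPase is a rotary pump. Its V1 sector, in the cytosol, holds a ring of A and B subunits that hydrolyses ATP and turns a central stalk, while peripheral stalks of C, E, G and H subunits hold the ring in place. The V0 sector, in the membrane, holds a rotor of c-type subunits that carries protons past subunit a, with d joining rotor and stalk. The acid it makes activates lysosomal hydrolases, which macrophages use to digest what they take up. TFEB, TFE3 and MITF are known to enter the nucleus when lysosomes are stressed or nutrients are short and to bind E-box sequences in the promoters of lysosomal genes.

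Between 27358042 and 36575446 counts were read from each homozygous mouse, between 22986972 and 32326603 from each heterozygous mouse and between 28668839 and 32931690 from each wild-type mouse. Levels are given in CPM, counts per 1000000 counts of a library after scaling between libraries, and group means as mean ± SD over the libraries. Mrc1, the targeted gene, averaged 489 ± 48.6 CPM across 4 homozygous libraries, 2153 ± 153 CPM across 3 heterozygous ones and 3481 ± 365 CPM across 3 wild-type ones, which follows the labelled genotypes. All 10 markers of CNS-associated macrophages were detected, and their summed level was 19324 to 19636 CPM in homozygous, 16094 to 19011 CPM in heterozygous and 16811 to 18537 CPM in wild-type libraries. Without Mrc1 the other 9 summed to 18869 to 19195 CPM in homozygous, 13906 to 16725 CPM in heterozygous and 13063 to 15472 CPM in wild-type libraries. All 9 were fitted above 0 in homozygous against wild-type mice, 7 of them at an unadjusted p under 0.05, and Lyve1 was called there (edgeR adjusted p = 0.0215) and against heterozygous mice (edgeR adjusted p = 0.0421). All 7 microglia markers were also detected, at a sum of 1127 to 1647 CPM in homozygous, 1812 to 3147 CPM in heterozygous and 1512 to 4163 CPM in wild-type libraries. In homozygous mice all 7 were fitted below 0 against wild-type mice and against heterozygous mice. In each of these comparisons 4 had an unadjusted edgeR p under 0.05, and none was called. Of 5 monocyte markers Chil3 was at 0 throughout, and the sum was 5.72 to 13.5 CPM in homozygous, 49.1 to 68.0 CPM in heterozygous and 75.7 to 163 CPM in wild-type libraries. Astrocyte marker sums were low, at 17.3 to 27.5 CPM in homozygous, 32.7 to 40.7 CPM in heterozygous and 6.18 to 12.3 CPM in wild-type libraries, and B cell marker sums were 251 to 410 CPM in homozygous, 329 to 446 CPM in heterozygous and 429 to 711 CPM in wild-type libraries. Neither monocyte nor astrocyte sums overlapped between any genotypes. Homozygous sums lay apart from both other genotypes for macrophage markers, with or without Mrc1, from the heterozygous ones for microglia and for endothelial and stromal markers and from the wild-type ones for B cell markers, while heterozygous sums lay apart from wild-type ones for oligodendrocyte markers. Of the markers of other cell types Ccr2, of monocytes, was called lower in homozygous mice against wild-type and heterozygous ones (edgeR adjusted p = 0.00216 and 0.0421), and Gja1, of astrocytes, higher in homozygous against wild-type mice (edgeR adjusted p = 0.0315). The part of any of these lists in the values below was not tested. In a bulk sample, fewer cells of a type and less RNA per cell cannot be told apart.

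The 31 genes together took between 1.11% and 1.13% of the counts of a homozygous library, between 1.03% and 1.10% of a heterozygous and between 0.983% and 1.09% of a wild-type library. To compare genes with each other, CPM were divided by the length of each gene's annotated exons in kb. The most abundant per length was Cd68, the heavily glycosylated macrosialin of macrophage lysosomes, at 1291 ± 51.7, 1308 ± 117 and 1205 ± 24.5 CPM per kb in homozygous (n = 4), heterozygous (n = 3) and wild-type libraries (n = 3; mean ± SD). It ranked 32nd of 21885 genes in wild-type libraries. Lamp1, a glycoprotein that lines the inner face of the lysosomal membrane, ranked 48th, at 945 ± 29.97, 906 ± 94.3 and 832 ± 101 CPM per kb in the same order of groups. Atp6ap1, an accessory subunit needed for assembly of the V0 sector, followed at 354 ± 34.3, 322 ± 46.5 and 302 ± 45.4 CPM per kb and ranked 128th.

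**Figure D1:**
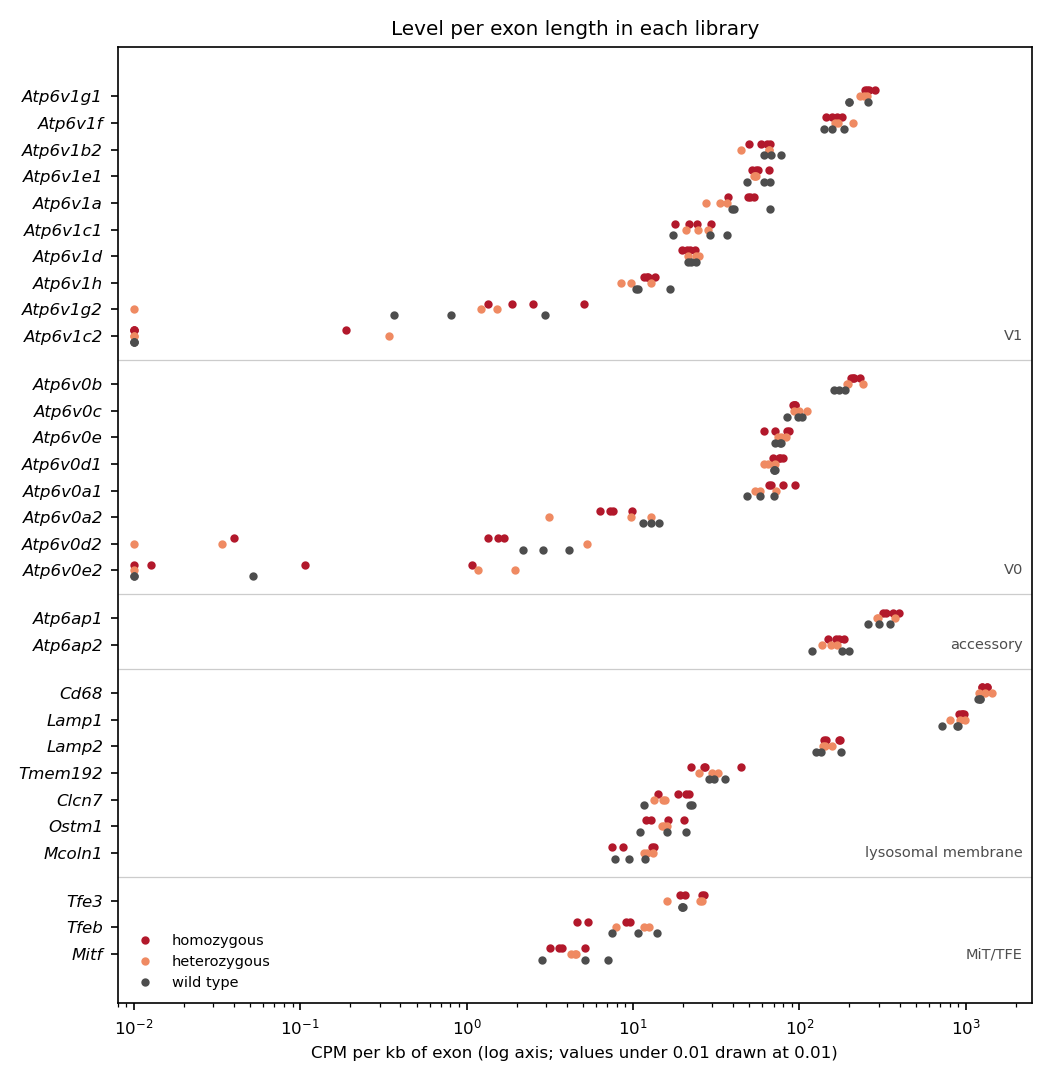
Level of 30 genes in each of the 10 libraries, in CPM per kb of exon on a log axis, grouped by role and ordered by level; each point is a library, coloured by genotype, and Atp6v1fnb is left out. Cd68 and Lamp1 stand at the top, and at each V1 or V0 position with paralogs a single gene holds most of the level, least so at V0 subunit a, where Atp6v0a2 makes up 4.12% to 22.8% of its sum with Atp6v0a1.

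Within the V1 sector the RNA level per length spread widely. The assembled complex holds its subunit proteins in fixed proportions, which RNA levels do not measure. Averaged over all libraries, Atp6v1g1 and Atp6v1f, of the peripheral and central stalks, were at 243 and 168 CPM per kb. Atp6v1b2 and Atp6v1a, whose products form the ATP-hydrolysing ring, were at 62.1 and 43.4 CPM per kb. Atp6v1e1, Atp6v1c1, Atp6v1d and Atp6v1h were at 56.7, 25.1, 22.4 and 11.8 CPM per kb. In the V0 sector Atp6v0b, which encodes a rotor subunit, was at 200.5 CPM per kb and the main rotor gene Atp6v0c at 96.1 CPM per kb. Atp6v0e, Atp6v0d1 and Atp6v0a1 lay close together at 76.4, 71.0 and 66.8 CPM per kb. Exon length is the union over all annotated transcripts. With the longest transcript instead, Lamp2 moved up from the 8th to the 4th place among the 31 and Clcn7 moved down from the 20th to the 24th. Atp6v0e, Atp6v0d1 and Atp6v0a1 were then at 100.8, 78.2 and 105 CPM per kb, so their closeness depends on the length used. In the V1 sector Atp6v1g1 stayed at 243 and Atp6v1h rose to 23.9 CPM per kb, so the width of that spread depends on it too.

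Where the pump has alternative subunits, the ubiquitous form led in every library. Atp6v1c1 made up 98.8% to 100% of the C level per length in every library, Atp6v1g1 98.1% to 100% of the G level and Atp6v0e 97.5% to 100% of the e level. Atp6v1c2 and Atp6v1g2, paralogs known best from epithelia and neurons, were at 0 to 0.739 CPM and 0 to 12.7 CPM. The kidney-type genes Atp6v1b1, Atp6v0a4 and Atp6v1g3, the testis-type Atp6v1e2 and Atp6ap1l had no count among the 313769272 counts of the 10 libraries, which allows a level of up to 0.00957 CPM (3 counts, counting error only). Subunit a, which sends the pump to different compartments, was the exception. Atp6v0a2, known from the Golgi and endosomes, made up 6.33%, 10.01%, 8.35% and 13.1% of the sum of Atp6v0a1 and Atp6v0a2 in homozygous, 4.12%, 14.4% and 19.3% in heterozygous and 14.1%, 18.2% and 22.8% in wild-type libraries. The homozygous and wild-type shares did not overlap, and of the heterozygous shares that of replicate 1 lay below all homozygous ones and those of replicates 2 and 4 lay inside the wild-type range. When Tcirg1, the a3 gene of osteoclasts and macrophage lysosomes, which the naming rule does not take in, was added, it made up a mean of 16.4% of the a level in homozygous, 19.4% in heterozygous and 19.8% in wild-type libraries.

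Atp6v0d2, the d subunit known from osteoclasts and some macrophages, was the member that varied most between libraries after the nearly absent genes. It was at 0.109, 4.20, 3.66 and 4.55 CPM in homozygous, 0, 0.0924 and 14.4 CPM in heterozygous and 11.2, 7.83 and 5.89 CPM in wild-type libraries. Against Atp6v0d1, the ubiquitous d gene, it made up at most 7.95% of the d level, in heterozygous replicate 4. Of 5 osteoclast markers, Ctsk, Calcr and Dcstamp had no count in any library. The homozygous libraries all lay below the wild-type ones, but the spread within genotypes was wide, and the log2 fold change of -1.41 had a 95% interval of -5.44 to 2.62 (edgeR adjusted p = 0.999). Atp6v0e2, the alternative e gene, was at 0.254, 2.56, 0 and 0.0302 CPM in homozygous, 0, 2.77 and 4.62 CPM in heterozygous and 0, 0 and 0.125 CPM in wild-type libraries, so that 4 of the 10 libraries had no count. Atp6v1fnb was seen in heterozygous replicates 1 and 2 and wild-type replicate 1 at up to 0.754 CPM, and 24.6% of its exon bases overlap Kcp on the opposite strand.

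The coefficient of variation within genotypes had a median of 12.5% over the 20 tested members above 100 CPM, against 16.5% over all 1797 tested genes above 100 CPM. Atp6v0d1 and Cd68 were the steadiest, with 5.47% and 5.70%. Cd68 ran from 1479.8 to 1799 CPM over the 10 libraries, a 1.22-fold range. Atp6v1a, Atp6v1c1 and Ostm1, at 22.6%, 25.5% and 23.5%, were among the least even of the abundant members.

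Promoter sequences were read for the E-box letters that MiT/TFE factors bind. RefSeq promoters on GRCm38.p6, from 250 bases before to 50 bases after a start site, were at hand for 25 of the 31 genes. The letters searched were CACGTG, the E-box, and TCACGTGA, the core of the palindrome known as the CLEAR element, which contains the E-box; each reads the same on either strand. The longer core stood in the promoters of 5 of the 25 genes (20%), against 304 of 27025 genes with a RefSeq promoter (1.12%). The E-box alone stood in 7 of the 25 (28%), against 8.09% of all. Genes with several start sites have several windows, and per window the shares were 14.7% and 20.6% of 34 member windows, against 0.974% and 7.15% of all 32851. The genes with the core were Atp6v1a, Atp6v0d1, Atp6v0e, Clcn7 and Mcoln1, and Atp6v0b and Lamp1 had the E-box without it. None of the windows of Tfeb, Tfe3 and Mitf held either. Both motifs were chosen because they are known from promoters of lysosomal genes. A higher share among such genes was therefore likely beforehand, and these shares describe the promoters without being a test.

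The sequences around these letters are shown to let the promoters be compared, each read 5′ to 3′ on the strand of its gene, with the core or the E-box in capitals.
Atp6v1a (chr16:44139373-44139402, - strand): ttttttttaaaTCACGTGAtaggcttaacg
Atp6v0d1 (chr8:105566050-105566079, - strand): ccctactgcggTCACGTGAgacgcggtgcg
Atp6v0e (chr17:26676387-26676416, + strand): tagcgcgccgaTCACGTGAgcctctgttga
Clcn7 (chr17:25133386-25133415, + strand): ccgatgatagaTCACGTGAgacctgggcgc
Mcoln1 (chr8:3500442-3500485, + strand): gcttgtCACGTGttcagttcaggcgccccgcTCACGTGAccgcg
Atp6v0b (chr4:117887336-117887371, - strand): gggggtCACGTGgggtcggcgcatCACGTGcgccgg
Lamp1 (chr8:13159094-13159157, + strand): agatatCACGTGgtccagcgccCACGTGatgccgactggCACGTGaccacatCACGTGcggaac
Lamp1 held 4 E-boxes within 64 bases upstream of its start site, a number reached by 6 of the 27025 genes. Mcoln1, Clcn7 and Atp6v0b held 2 each, and 184 of the 27025 genes had at least that many in a window. In Mcoln1 an E-box starting at -71 lies upstream of the core, whose own E-box starts at -45 from the start site. In Clcn7 a further E-box lies upstream of the core shown. These are matches of letters in a window and do not show binding.

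**Figure D2:**
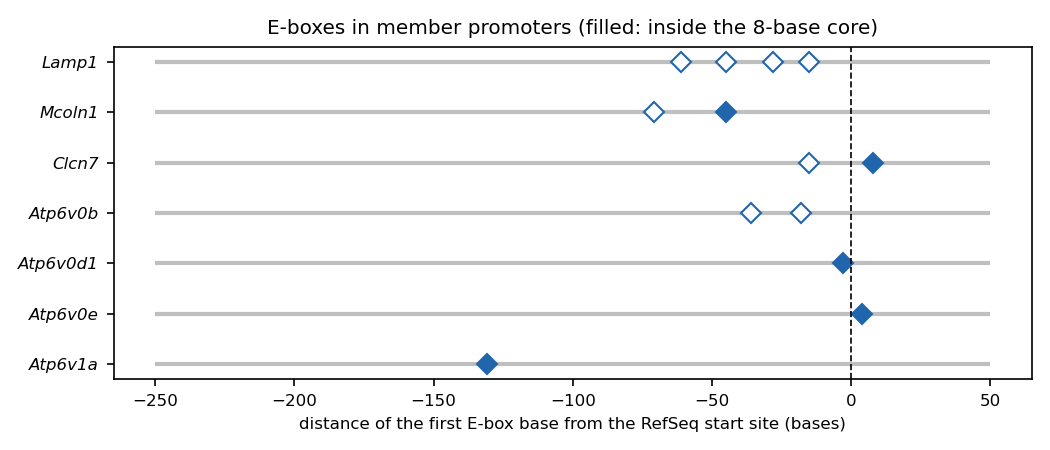
Position of the first base of each E-box in the 7 member promoters that hold any, as the distance in bases from the RefSeq start site; grey lines span the window read, from 250 bases before to 50 after. Filled diamonds are E-boxes inside the 8-base core, and all but that of Atp6v1a, at -131, lie within 71 bases of the start.

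Between homozygous and wild-type macrophages no member passed the test, and the smallest p-values among members were those of a pair of V0 genes. None of the 29 tested members was called at an adjusted p under 0.05 by edgeR's quasi-likelihood test, where 9 of 14023 genes (0.0642%) were called. At an unadjusted p under 0.05 there were 2 members, Atp6v0b and Atp6v0a1, or 6.90%, against 7.52% of all genes. Of the 1797 tested genes above 100 CPM, a level that 20 of the 29 members passed, the share was 13.6%. The fitted change was above 0 in 15 of 29 members, against 51.1% of all genes, and the median log2 fold change was 0.0039 over members and 0.016 over all genes. The libraries of the genotypes did not overlap for 5 members, with 3 higher and 2 lower in homozygous mice, where 7.97% of all genes did not overlap. DESeq2 and limma-voom called no member either.

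The V0 sector held both members with a small unadjusted p. Atp6v0b was at 471, 428, 439 and 417 CPM in homozygous, 494, 396 and 400.1 CPM in heterozygous and 331, 353 and 383.5 CPM in wild-type libraries. All homozygous libraries lay above all wild-type ones, and so did the heterozygous libraries. The log2 fold change was 0.30 (SE 0.11, edgeR adjusted p = 0.602, unadjusted p = 0.0180). The exons of Atp6v0b overlap Gm12841 on the opposite strand over 11.8% of their length, and the kit does not mark strand. Atp6v0a1, the a subunit that led in these cells, was at 614, 444, 521 and 433 CPM in homozygous, 476, 380.9 and 353 CPM in heterozygous and 460.2, 378.9 and 319 CPM in wild-type libraries. Homozygous replicate 1 was highest and wild-type replicate 3 lowest, and wild-type replicate 1 lay within the homozygous range. Atp6v0a1 had a log2 fold change of 0.38 (SE 0.17, edgeR adjusted p = 0.660, unadjusted p = 0.0491), and without wild-type replicate 3 it was 0.26. Atp6v0a2 was at 42.6, 50.7, 48.7 and 66.7 CPM in homozygous, 21.0, 65.7 and 86.4 CPM in heterozygous and 77.5, 86.6 and 96.7 CPM in wild-type libraries. Its homozygous libraries all lay below the wild-type ones, while heterozygous replicate 1 was the lowest of all and heterozygous replicate 4 lay among the wild-type values. Its fitted log2 fold change was -0.74, with a 95% interval of -1.59 to 0.12 (edgeR adjusted p = 0.717). Its exons overlap 4930404A12Rik on the opposite strand over 9.86% of their length. The rotor gene Atp6v0c averaged 314 ± 4.23 CPM across 4 homozygous libraries, against 324 ± 35.2 CPM across 3 wild-type ones, and the interval of its log2 fold change was -0.28 to 0.19.

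**Figure D3:**
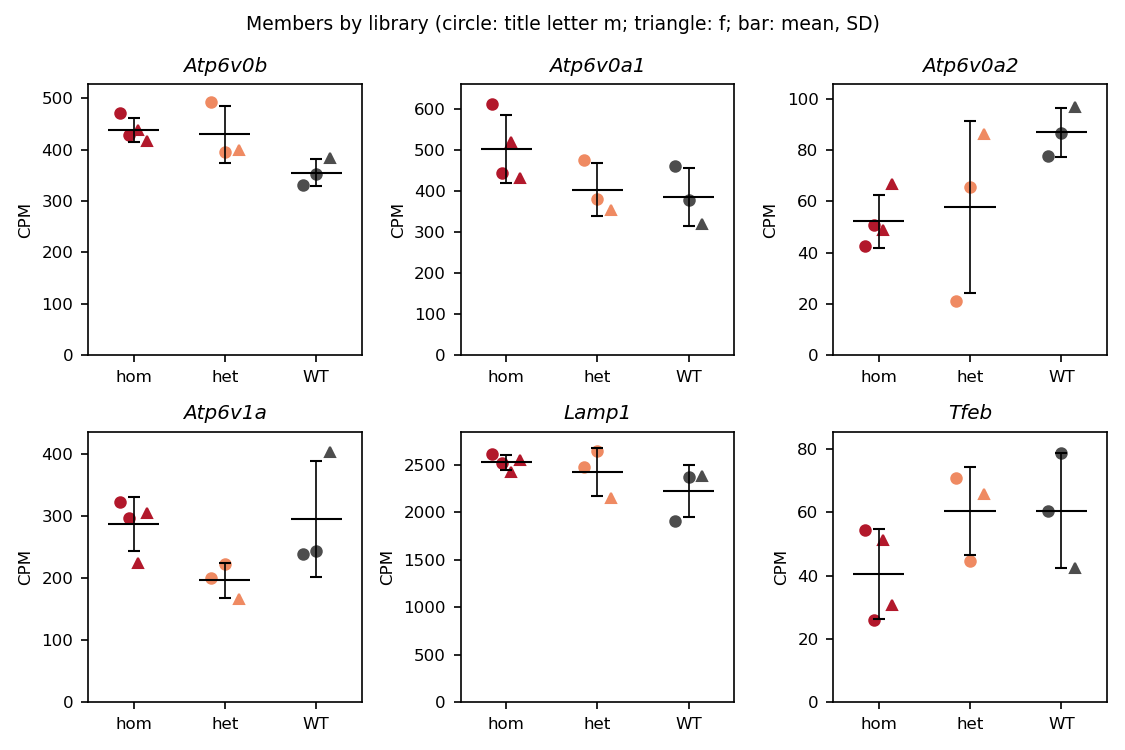
CPM of 6 members in each library by genotype (hom, homozygous; het, heterozygous; WT, wild type), with the mean as a horizontal bar and the SD as an error bar; circles have the title letter m and triangles f. Homozygous libraries lie above wild-type ones for Atp6v0b and Lamp1 and below them for Atp6v0a2, and heterozygous libraries lie below the others for Atp6v1a.

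In the V1 sector no gene had an unadjusted p under 0.05, and of its 9 tested genes 3 were fitted above 0 and 6 below. Atp6v1g1 had the smallest p among them, at 298 ± 17.8 CPM across 4 homozygous libraries, against 248 ± 40.7 CPM across 3 wild-type ones, with a log2 fold change of 0.26 (95% interval -0.0098 to 0.53, edgeR adjusted p = 0.687), and one of 0.41 without wild-type replicate 3. Atp6v1b2, the B subunit, averaged 317 ± 40.0 CPM across 4 homozygous libraries, against 365 ± 43.4 CPM across 3 wild-type ones, a log2 fold change of -0.21 (95% interval -0.57 to 0.16) that became -0.10 without wild-type replicate 1. Atp6v1c1 averaged 131 ± 27.2 CPM across 4 homozygous libraries, against 155 ± 54.0 CPM across 3 wild-type ones. Its log2 fold change was -0.24 (95% interval -0.80 to 0.32) and ran from -0.48 without wild-type replicate 1 to 0.0079 without wild-type replicate 3. The summed V1 level was 1615 to 1764 CPM in homozygous, 1383 to 1630 CPM in heterozygous and 1581 to 1883 CPM in wild-type libraries. The lowest sum was in heterozygous replicate 4 and the highest in wild-type replicate 3.

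Among the accessory subunits, Atp6ap1 averaged 1072 ± 104 CPM across 4 homozygous libraries, against 915 ± 137 CPM across 3 wild-type ones, a log2 fold change of 0.23 (95% interval -0.066 to 0.52, edgeR adjusted p = 0.789), which was 0.13 without wild-type replicate 1 and 0.34 without wild-type replicate 3. Atp6ap2, also known as the prorenin receptor, averaged 438 ± 39.1 CPM across 4 homozygous libraries, against 436 ± 109 CPM across 3 wild-type ones, with an interval of -0.36 to 0.37. Among the membrane proteins, Lamp1 was at 2614, 2526, 2421 and 2548 CPM in homozygous, 2476, 2646 and 2149 CPM in heterozygous and 1912, 2377 and 2387 CPM in wild-type libraries. Every homozygous library lay above every wild-type one, the closest being 2421 and 2387 CPM, and heterozygous replicate 4 lay between the wild-type values. The log2 fold change of Lamp1 was 0.18 (95% interval -0.035 to 0.40, edgeR adjusted p = 0.731), and without wild-type replicate 1 it was 0.092. Cd68 did not overlap either, at 1565, 1682, 1675 and 1567 CPM in homozygous and 1479.8, 1524 and 1539 CPM in wild-type libraries, for a log2 fold change of 0.099 (95% interval -0.072 to 0.27). Lamp2, a partner of LAMP1 with a part in autophagy, averaged 1511 ± 174 CPM across 4 homozygous libraries, against 1389.5 ± 261 CPM across 3 wild-type ones. Mcoln1, the calcium channel of lysosomes, averaged 80.2 ± 22.4 CPM across 4 homozygous libraries, against 73.1 ± 15.1 CPM across 3 wild-type ones. Clcn7, the chloride-proton exchanger, averaged 99.4 ± 17.6 CPM across 4 homozygous libraries, against 99.6 ± 32.6 CPM across 3 wild-type ones, and Ostm1, its partner subunit, 111 ± 27.4 CPM across 4 homozygous libraries, against 115 ± 35.8 CPM across 3 wild-type ones. Tmem192, a lysosomal membrane protein often used as a tag for isolating lysosomes, averaged 52.8 ± 17.0 CPM across 4 homozygous libraries, against 55.4 ± 6.51 CPM across 3 wild-type ones. The 95% intervals of these 5 genes ran between -0.63 and 0.66 on the log2 scale.

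Of the transcription factors, Tfe3 was the most abundant per length, at 23.2 ± 3.87, 22.4 ± 5.59 and 19.8 ± 0.162 CPM per kb in homozygous, heterozygous and wild-type libraries. Tfeb was at 7.16 ± 2.52, 10.7 ± 2.44 and 10.7 ± 3.21 and Mitf at 3.91 ± 0.850, 4.42 ± 0.152 and 5.02 ± 2.12 CPM per kb in the same order. In CPM, Tfeb was at 54.3, 26.0, 51.3 and 30.6 CPM in homozygous, 70.7, 44.7 and 65.8 CPM in heterozygous and 60.5, 78.7 and 42.3 CPM in wild-type libraries. The homozygous values reached lower, with replicates 2 and 4 below all others, but overlapped those of the other genotypes. The log2 fold change of Tfeb was -0.58 with a 95% interval of -1.30 to 0.15 (edgeR adjusted p = 0.773), and -0.34 without wild-type replicate 2. Mitf was at 19.6, 23.1, 31.8 and 22.4 CPM in homozygous, 26.3, 28.2 and 27.6 CPM in heterozygous and 43.8, 17.5 and 32.0 CPM in wild-type libraries, for a log2 fold change of -0.36 (95% interval -1.09 to 0.37), and it ran from -0.65 without wild-type replicate 2 to -0.027 without wild-type replicate 1. Tfe3 averaged 215 ± 35.9 CPM across 4 homozygous libraries, against 184 ± 1.502 CPM across 3 wild-type ones, a log2 fold change of 0.23 (95% interval -0.19 to 0.64). Over the 29 members, the 95% interval stayed within 1 log2 unit of 0 for 23 and within 0.5 for 12.

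**Figure D4:**
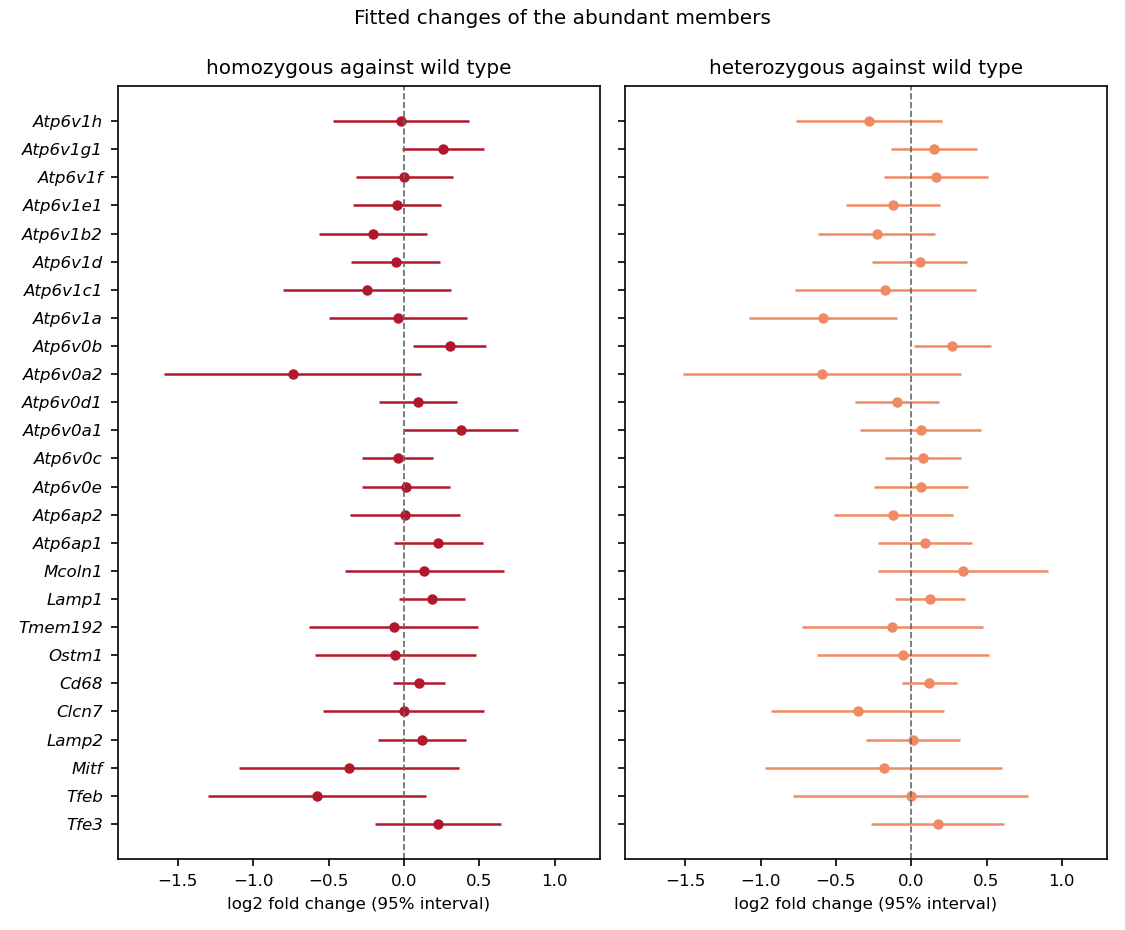
Fitted log2 fold changes (points) with 95% intervals (lines) of 26 members for homozygous against wild type and heterozygous against wild type; both comparisons share the wild-type libraries, and the low genes Atp6v0d2, Atp6v0e2 and Atp6v1g2 are left out. Intervals of Atp6v0b lie above 0 in both panels, that of Atp6v0a1 in the homozygous and, below 0, that of Atp6v1a in the heterozygous panel.

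In heterozygous against wild-type macrophages the smallest p among members was that of Atp6v1a, the catalytic A subunit. No member was called by edgeR's quasi-likelihood test, and neither was any of the 14023 genes (0%). The 2 members with an unadjusted p under 0.05 were Atp6v1a and Atp6v0b, against 5.82% of all genes and 6.79% of those above 100 CPM. DESeq2 and limma-voom called no member. Of the 29, 14 were fitted above 0, against 50.7% of all genes. The median log2 fold change was -0.0026 over members and 0.0090 over all genes. Groups did not overlap for 1 member with higher and 1 with lower values in heterozygous mice, where 9.6% of all genes did not overlap.

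Atp6v1a was at 323, 297, 224 and 305 CPM in homozygous, 200.3, 222 and 167 CPM in heterozygous and 239, 244 and 403 CPM in wild-type libraries. All 3 heterozygous libraries lay below all others, and wild-type replicate 3 stood well above the other 9. This gave a log2 fold change of -0.59 (SE 0.22, edgeR adjusted p = 0.791, unadjusted p = 0.0240), and without wild-type replicate 3 it was -0.29. That library was the highest of the 10 for 5 tested members and the lowest for 4. Of the V1 genes, it also had the highest Atp6v1h and Atp6v1c1 but the lowest Atp6v1e1, at 199 CPM, and Atp6v1f, at 150 CPM. Its microglia marker sum, 4163 CPM, was the highest, and the part of that in these values was not tested. Atp6v1h, the regulatory H subunit, averaged 101 ± 22.2 CPM across 3 heterozygous libraries, against 123 ± 34.0 CPM across 3 wild-type ones, a log2 fold change of -0.28 that became -0.028 without wild-type replicate 3, the same library, and -0.47 without heterozygous replicate 2. Atp6v1b2 averaged 311 ± 64.3 CPM across 3 heterozygous libraries, against 365 ± 43.4 CPM across 3 wild-type ones, with a log2 fold change of -0.23 (95% interval -0.62 to 0.16), or -0.076 without heterozygous replicate 4.

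Atp6v0b in heterozygous libraries, given above, was higher than in wild-type libraries by a log2 fold change of 0.27 (SE 0.11, edgeR adjusted p = 0.791), which became 0.15 without heterozygous replicate 1. This comparison and that of homozygous mice share the wild-type libraries. Atp6v0a2 had a log2 fold change of -0.59 (95% interval -1.51 to 0.33), which ranged from -1.01 without heterozygous replicate 4 to -0.20 without heterozygous replicate 1. Clcn7 had one of -0.36 (95% interval -0.93 to 0.22), from -0.61 without wild-type replicate 1 to -0.20 without wild-type replicate 2. Mcoln1 averaged 92.8 ± 6.41 CPM across 3 heterozygous libraries, against 73.1 ± 15.1 CPM across 3 wild-type ones, a log2 fold change of 0.34 (95% interval -0.22 to 0.91), or 0.20 without wild-type replicate 2. Lamp1 and Cd68 differed by 0.12 (95% interval -0.11 to 0.36) and 0.12 (95% interval -0.064 to 0.30). Lamp1 was at 0.021 without wild-type replicate 1, and Cd68 at 0.049 without heterozygous replicate 2. Tfeb averaged 60.4 ± 13.8 CPM across 3 heterozygous libraries, against 60.5 ± 18.2 CPM across 3 wild-type ones, with a 95% interval of -0.78 to 0.78.

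In homozygous against heterozygous macrophages no member was called, where edgeR's quasi-likelihood test called 3 of 14023 genes (0.0214%), and DESeq2 and limma-voom called no member. Atp6v1a was the only member with an unadjusted p under 0.05, against 4.86% of all genes and 9.96% of those above 100 CPM. It was also the only one whose libraries did not overlap, against 7.47% of all genes. Its log2 fold change was 0.55 (SE 0.21, edgeR adjusted p = 1, unadjusted p = 0.0253), with every homozygous library above every heterozygous one. Of the 29 members 16 were fitted above 0, against 50.9% of all genes, and the median was 0.030 over members and 0.0081 over all genes. Next among the higher ones came Atp6v0a1 at 0.32 (95% interval -0.061 to 0.70), Atp6v0d1 at 0.19 (95% interval -0.074 to 0.45), Clcn7 at 0.35 (95% interval -0.19 to 0.89) and Atp6v1h at 0.26 (95% interval -0.19 to 0.72). Atp6v1h ranged from 0.15 without heterozygous replicate 4 to 0.45 without heterozygous replicate 2. Among the lower ones, Tfeb was at -0.57 (95% interval -1.30 to 0.15), and Atp6v0c, Atp6v1f, Mcoln1 and Atp6v1d lay between -0.21 and -0.11. Atp6v0c was at -0.043 without heterozygous replicate 1, Atp6v1f at -0.030 without heterozygous replicate 1, Mcoln1 at -0.076 without homozygous replicate 4 and Atp6v1d at -0.055 without heterozygous replicate 4.

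The title letter was compared with genotype held in the fit, since 4 members, Lamp2, Atp6ap1, Atp6ap2 and Tfe3, lie on the X chromosome. Lamp2 and Atp6ap1 had the smallest p-values of any member in any comparison. Lamp2 in libraries with the letter f was at 1677 and 1643 CPM in homozygous, 1503 CPM in heterozygous and 1687 CPM in wild-type mice, and in those with the letter m at 1338 and 1386 CPM in homozygous, 1362 and 1332 CPM in heterozygous and 1202 and 1279 CPM in wild-type mice. All 4 f libraries lay above all 6 m libraries, and the difference was seen within each genotype. The log2 fold change of f against m was 0.30 (SE 0.062, edgeR adjusted p = 0.473, unadjusted p = 0.000897).

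Atp6ap1 was at 1111 and 1198 CPM in homozygous, 1138 CPM in heterozygous and 1054 CPM in wild-type mice with the letter f, and at 969 and 1008 CPM in homozygous, 891 and 897 CPM in heterozygous and 780.0 and 910.2 CPM in wild-type mice with the letter m. Again no m library reached an f library. Its log2 fold change was 0.29 (SE 0.067, edgeR adjusted p = 0.634, unadjusted p = 0.00184). Neither passed edgeR's test over all genes, and limma-voom called neither. DESeq2 called both, with an adjusted p of 0.000428 for Lamp2 and 0.0134 for Atp6ap1. DESeq2 called 181 genes between the letters, where edgeR called 3 of 14023. For the other X-linked members the letters overlapped. Atp6ap2 had a log2 fold change of 0.068 (95% interval -0.26 to 0.40) and Tfe3 one of -0.095 (95% interval -0.46 to 0.27). All 7 microglia markers were also fitted higher in f libraries, 4 of them at an unadjusted p under 0.05, and their part in the Lamp2 and Atp6ap1 values was not tested.

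**Figure D5:**
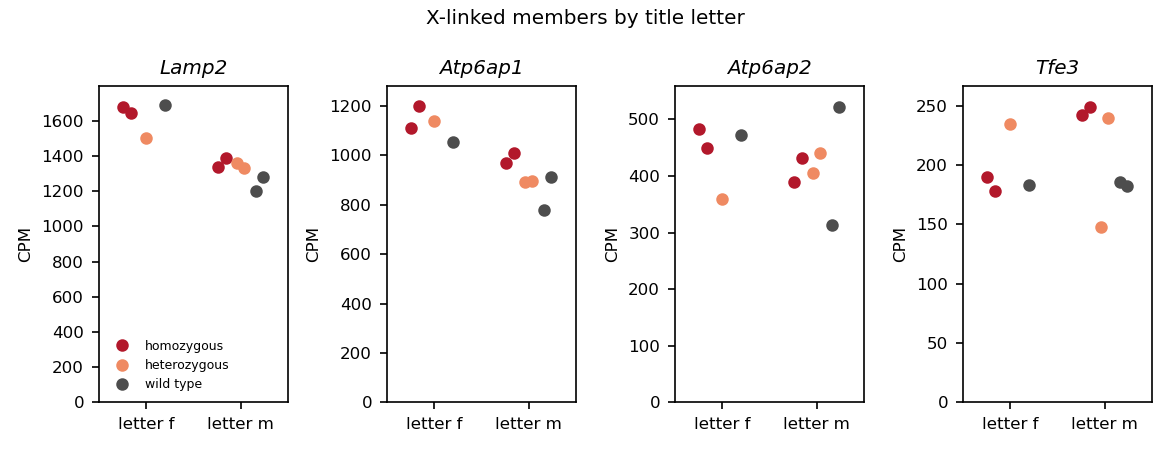
CPM of the 4 X-linked members in libraries with the title letter f (left) and m (right), coloured by genotype; each point is a library. For Lamp2 the f libraries sit between 1503 and 1687 CPM and the m libraries between 1202 and 1386 CPM, and for Atp6ap1 between 1054 and 1198 CPM and between 780.0 and 1008 CPM, while the letters overlap for Atp6ap2 and Tfe3.

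Over all 29 members, none was called between the letters by edgeR's quasi-likelihood test, against 3 of 14023 genes (0.0214%). Lamp2 and Atp6ap1 were the 2 at an unadjusted p under 0.05, against 6.14% of all genes and 14.5% of those above 100 CPM. They were also the 2 whose libraries did not overlap, against 1.39% of all genes. Fitted changes were above 0 in 15 members, against 51.7% of all genes. Of the 403 tested X-linked genes, 28 had an unadjusted p under 0.05 (6.95%) and none was called. Next in rank by p among members fitted above 0 came Atp6v0a2 at 0.49, Tmem192 at 0.32 and Atp6v0e at 0.15. First among those fitted below 0 came Atp6v1e1 at -0.20, Atp6v0a1 at -0.26, Atp6v0c at -0.12, Mcoln1 at -0.26 and Atp6v1b2 at -0.13. The unadjusted edgeR p of these 8 ran from 0.0705 for Atp6v1e1 to 0.391 for Atp6v1b2. Of these 8, all but Atp6v0a1 moved by more than 1.5 times when some library was left out: without heterozygous replicate 4, Atp6v1b2 was at 0.023, Atp6v0a2 at 0.27 and Mcoln1 at -0.45.

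Lists of other genes of the same pathway were read for comparison, and no gene of these 3 lists was called by edgeR's quasi-likelihood test in any comparison. Of 12 tested partners and assembly factors of the pump, 5 (41.7%) were fitted above 0 in homozygous against wild-type mice, against 51.1% of all genes. Ccdc115, an assembly factor of the V0 sector, had the smallest p, at 62.2, 64.1, 83.5 and 66.7 CPM in homozygous, 83.2, 53.4 and 80.4 CPM in heterozygous and 34.8, 58.1 and 39.3 CPM in wild-type libraries. All homozygous libraries lay above the wild-type ones, and the log2 fold change was 0.65 (edgeR adjusted p = 0.624). Ncoa7, which binds the pump, was at -1.49 (95% interval -2.98 to 0.0040) against wild type and -1.95 (95% interval -3.45 to -0.45) against heterozygous mice.

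Of 33 other tested lysosomal membrane proteins, 23 (69.7%) were fitted above 0 in homozygous against wild-type mice, against 51.1% of all genes. In heterozygous against wild-type mice 19 were (57.6%, against 50.7%), and in homozygous against heterozygous mice 20 (60.6%, against 50.9%). Their median log2 fold changes were 0.19, 0.089 and 0.017 in the same order, against 0.016, 0.0090 and 0.0081 over all genes. Laptm4a, a small membrane protein of late endosomes and lysosomes, was at 909, 982, 1047 and 1067 CPM in homozygous, 871, 893 and 952 CPM in heterozygous and 833, 776 and 640.0 CPM in wild-type libraries. Its libraries did not overlap between wild-type mice and either other genotype. The log2 fold changes were 0.42 (edgeR adjusted p = 0.361) in homozygous and 0.27 (edgeR adjusted p = 0.791) in heterozygous mice. Cd63, a tetraspanin of the same compartment, was at 1437, 1521, 1579 and 1606 CPM in homozygous, 1565, 1531 and 1485 CPM in heterozygous and 1189, 1399.8 and 1403 CPM in wild-type libraries, with log2 fold changes of 0.21 and 0.20 against wild type (edgeR adjusted p = 0.638 and 0.791). Mcoln2, a relative of Mcoln1, was at 5.27, 11.4, 5.59 and 7.81 CPM in homozygous, 0, 4.34 and 0.0864 CPM in heterozygous and 0, 0 and 0.125 CPM in wild-type libraries, so it was seen in all homozygous libraries and hardly in wild-type ones, at a low level (edgeR adjusted p = 0.590). Slc15a4, a histidine and peptide transporter, was at 121, 106, 80.5 and 88.3 CPM in homozygous, 97.9, 126 and 79.3 CPM in heterozygous and 158, 132 and 129.8 CPM in wild-type libraries, for a log2 fold change of -0.50 in homozygous mice (edgeR adjusted p = 0.639). Between the letters, Mfsd8 had the smallest p of the list, with a log2 fold change of 1.23 (edgeR adjusted p = 0.680).

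The last list holds genes of lysosomal mTORC1 signalling, the pathway that keeps TFEB and TFE3 out of the nucleus, and of MiT/TFE control. It mixes parts of the pathway with brakes on it, so a count of signs gives no direction for the pathway. Of 20 tested genes, 7 (35%) were fitted above 0 in homozygous against wild-type mice, against 51.1% of all genes. In heterozygous against wild-type mice 8 were (40%, against 50.7%). Tsc2, a brake on mTORC1, was at 51.0, 56.8, 16.8 and 67.9 CPM in homozygous, 16.0, 24.7 and 36.9 CPM in heterozygous and 81.0, 76.2 and 140.1 CPM in wild-type libraries. Heterozygous and homozygous libraries all lay below the wild-type ones, with log2 fold changes of -1.04 (edgeR adjusted p = 0.654) in homozygous and -1.94 (edgeR adjusted p = 0.708) in heterozygous mice. Lamtor3, of the Ragulator complex that anchors mTORC1 to lysosomes, had a log2 fold change of -0.50 in heterozygous mice (edgeR adjusted p = 0.791). Fnip1, a partner of folliculin, had one of 0.73 in homozygous mice (edgeR adjusted p = 0.660).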

How the data were processed

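CNS-associated macrophages of 4 homozygous, 3 heterozygous and 3 wild-type mice were sequenced in 1 batch, from 500 pg of RNA each, per the labels. The authors deposited whole-number read counts per gene symbol, and their processing notes name bcl2fastq 2.20, STAR 2.7.8a and featureCounts 2.0.2. The sources used here give no build, annotation or strand setting. The kit does not mark strand, so reads of overlapping genes on opposite strands cannot be told apart.

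A filter with edgeR's filterByExpr (10 counts at least, 15 in total, grouped by genotype) kept 14023 genes, with 99.9% of counts. Libraries of 22986972 to 36575446 counts were scaled with TMM factors, and CPM use them. Genes were tested in edgeR 4.0.16 (R 4.3.3) by quasi-likelihood with robust dispersions, all 10 libraries and genotype as the only term; the title letter was tested with genotype as a covariate. P-values were adjusted over all genes (Benjamini-Hochberg) and called at 0.05. SEs were derived from the F value, and 95% intervals use the t quantile. The test of homozygous against wild-type mice was also run on simulated data, and the other comparisons were not. Exon lengths, chromosomes and overlaps came from GENCODE vM21, which matched 93.5% of symbols, and promoters from RefSeq. The limit for 0 is 3 counts, and limits cover counting error only.

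The members and lists were chosen with earlier results of these data known. Genes named were all members by role, the 5 with the smallest p in each direction per comparison, and examples from the pathway lists; the choice of the last and of the genes plotted was made after values were seen. Alternatives were DESeq2 size factors, no filter, a stricter filter (a mean of 10 counts and 1 CPM in 3 libraries), tests with DESeq2 1.42.0 and with limma-voom in limma 3.58.1, no robust estimation, only the genotypes compared, the title letter or the replicate number in the fit, each library left out, and the longest transcript as length.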

Additional observations from a re-analysis of the deposited data

Results flagged for a closer look

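The homozygous group has 4 libraries, which allows a check for a library far from the other 3. Of 30 members with any count there, 2 had such a library. Chance flags about 1 in 20 where values are normally spread. That rate does not hold for these 2 genes, which were at or near 0 in the other 3 libraries. Atp6v0e2 was at 2.56 CPM in homozygous replicate 2, with 90.1% of the group's range lying between it and the next library. Atp6v1c2 was at 0.410 CPM in homozygous replicate 3 and at 0 in the other 3. Atp6v0e2 was called in no comparison, and Atp6v1c2 was not tested. No member's letter difference was called as varying between genotypes by the edgeR interaction test (smallest adjusted p = 0.435). The heterozygous and wild-type groups hold 1 f library each, so the test cannot show that letter differences were alike. Its unadjusted p-values were under 0.05 for 2 members in homozygous and 3 in heterozygous against wild-type mice, with Atp6v1a the smallest in each. Both Atp6v1a terms use wild-type replicate 3, the only f wild-type library, at 403 CPM against 239 and 244 CPM in the m wild-type libraries.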

How the results depend on the processing

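No member was called in any genotype comparison under any alternative run, with 0 to 0 members called when each library was left out in turn, and 0 with the replicate number as a replicate block. Between title letters f and m, DESeq2 called 2 members, Lamp2 and Atp6ap1, where every other alternative called 0. The median level of the 31 members was 30.3 CPM per kb, 28.7 to 31.1 with a library left out, and 44.4 with the longest transcript as length, a value that follows from the shorter lengths. The 40 member fold changes followed were those with the 5 smallest p-values in each direction of each comparison. They were picked from these same data, and members with larger p-values were not followed, so a kept sign was likely beforehand. Of the 40, 38 kept their sign under every alternative run. Those of Atp6v1c1 (homozygous against wild type) and Atp6v1b2 (f against m), called in neither case, turned as given in the report. With 1 library left out, 29 of the 40 moved by more than 1.5 times: 7 of 10 in homozygous against wild type, 10 of 10 in heterozygous against wild type, 5 of 10 in homozygous against heterozygous and 7 of 10 between letters. Over all genes the background counts moved more. For homozygous against wild type edgeR called 9 genes, 2 to 12 with a library left out (2 on leaving out wild-type replicate 1 or homozygous replicate 1, 2 or 4), 2 from those genotypes alone, 17 with the title letter, 1 with the block and 294 in DESeq2. DESeq2 called 236 genes for heterozygous against wild type, 123 for homozygous against heterozygous and 181 between letters, where edgeR called 0, 3 and 3, and for homozygous against heterozygous edgeR called 1 to 2 with a library left out (2 without wild-type replicate 1 and 1 without each of the others). Between letters edgeR called 11 genes with no filter, 7 with the stricter filter and 0 to 3 with a library left out, and limma-voom called 6. Replicate numbers showed little sign of pairing the mice. Deviations correlated at -0.012 to 0.035 over 8 same-numbered pairs (median 0.0092) and -0.047 to 0.048 over 25 others (median -0.0041). Such correlations in small groups cannot exclude pairing. The replicate number fixes the letter, so no block could be fitted between letters. Groups of 3 or 4 mice, whose spread may be partly technical, limit each interval, and median SEs of 0.15 to 0.18 log2 units set what could be seen.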
